A study of Mus musculus with 2 samples.

Results

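Proteasome subunit genes were taken as the 39 protein-coding RefSeq genes of the mouse whose symbol is Psma, Psmb, Psmc or Psmd followed by a number, out of 21887 protein-coding genes on the assembled chromosomes. The rule used names and no measured value, but the members were chosen with earlier results of these data known. The core held 19 genes (8 Psma and 11 Psmb) and the regulatory particle 20 (6 Psmc and 14 Psmd). Of the 39, 34 were counted as constitutive, and the other 5 were the immune subunit genes Psmb8, Psmb9 and Psmb10, the thymus gene Psmb11 and the testis gene Psma8. The mark measured was trimethylation of histone H3 at lysine 4 (H3K4me3), by chromatin immunoprecipitation and sequencing in neural progenitor cells from adult mice. Both samples came from cells kept in N2 medium with EGF and bFGF and given no treatment, and the labels used here name no strain, genotype or sex. There was 1 H3K4me3 library, marked "con" in its label and named after EGF in the file header, and 1 input library, so the spread between cultures is unknown and comparisons among genes carry no test. The H3K4me3 library held 18156769 tags after filtering and the input 17831241.

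The proteasome is the barrel-shaped protease that degrades proteins tagged with ubiquitin. Its core particle is built from rings of alpha (Psma) and beta (Psmb) subunits, and a few of the beta subunits cut peptide bonds. A regulatory particle caps the barrel. Its Psmc subunits are ATPases that unfold the substrate, and its Psmd subunits bind ubiquitin, remove it, or hold the particle together; a few Psmd proteins are assembly chaperones instead. All cells need the complex, whereas interferon exchanges the cutting subunits for immune forms that favour peptides for antigen presentation. In mammals H3K4me3 gathers at promoters that are active or poised, so it reports on the state of a promoter and not on the amount of protein.

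Almost every proteasome gene carried the mark. A peak from the authors' list lay within 1 kb of an end of 36 of the 39 genes, which is 92.3% (exact Clopper-Pearson 95% interval 79.1 to 98.4, counting error over genes only), against 56.3% of all protein-coding genes. All 20 regulatory genes had a peak (interval 83.2% to 100%), as did 16 of the 19 core genes (84.2%, interval 60.4 to 96.6). The intervals of the core and the regulatory particle overlap. Of the constitutive genes 33 of 34 had a peak at an end, and of the immune, thymus and testis genes 3 of 5. The genes without one were Psma6, Psma8 and Psmb11, and only Psma8 and Psmb11 also had none over the gene body; a peak at an end or over the body was present for 61.5% of coding genes. The count of all members depended on how peaks were joined to genes. It was 36 with windows of 500 bp (54.8% of coding genes) and 2500 bp (59.0%), with a score of at least 100 (55.4%) and with at least 200 bp of the peak in the window (55.8%), and 35 with the summit in the window (51.2%). With peaks at ends of 1 coding gene only, it was 24 (40.9%), with 8 of 19 in the core, 16 of 20 in the regulatory particle and 0 of 5 among the immune, thymus and testis genes. A gene without a peak here is a gene with no called peak at this depth. Since the cells were measured in bulk, fewer cells with the mark and less mark per cell cannot be told apart.

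In strength the marked members lay close to other marked genes. Their median fold enrichment over the input, the authors' value for each peak, was 42.6 with quartiles of 35.98 and 46.8, and the median over all 12328 marked coding genes was 39.1 with quartiles of 29.9 and 46.3. The fold enrichment lay above that median in 23 of the 36 genes (63.9%). Core and regulatory medians were 42.0 and 43.0, and the 95% order-statistic intervals of these medians, 35.9 to 50.6 and 37.9 to 46.3, overlapped. The number of tags per kb of peak had a median of 166 in the marked members and 152 in marked coding genes. Every one of the 36 peaks covered the gene end itself, so no gene was near the limit of the window. Scores (10 times the negative log10 of p) were at least 1181 at the strongest end peak of every marked member, and the lowest in the list was 50.01.

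**Figure D1:**
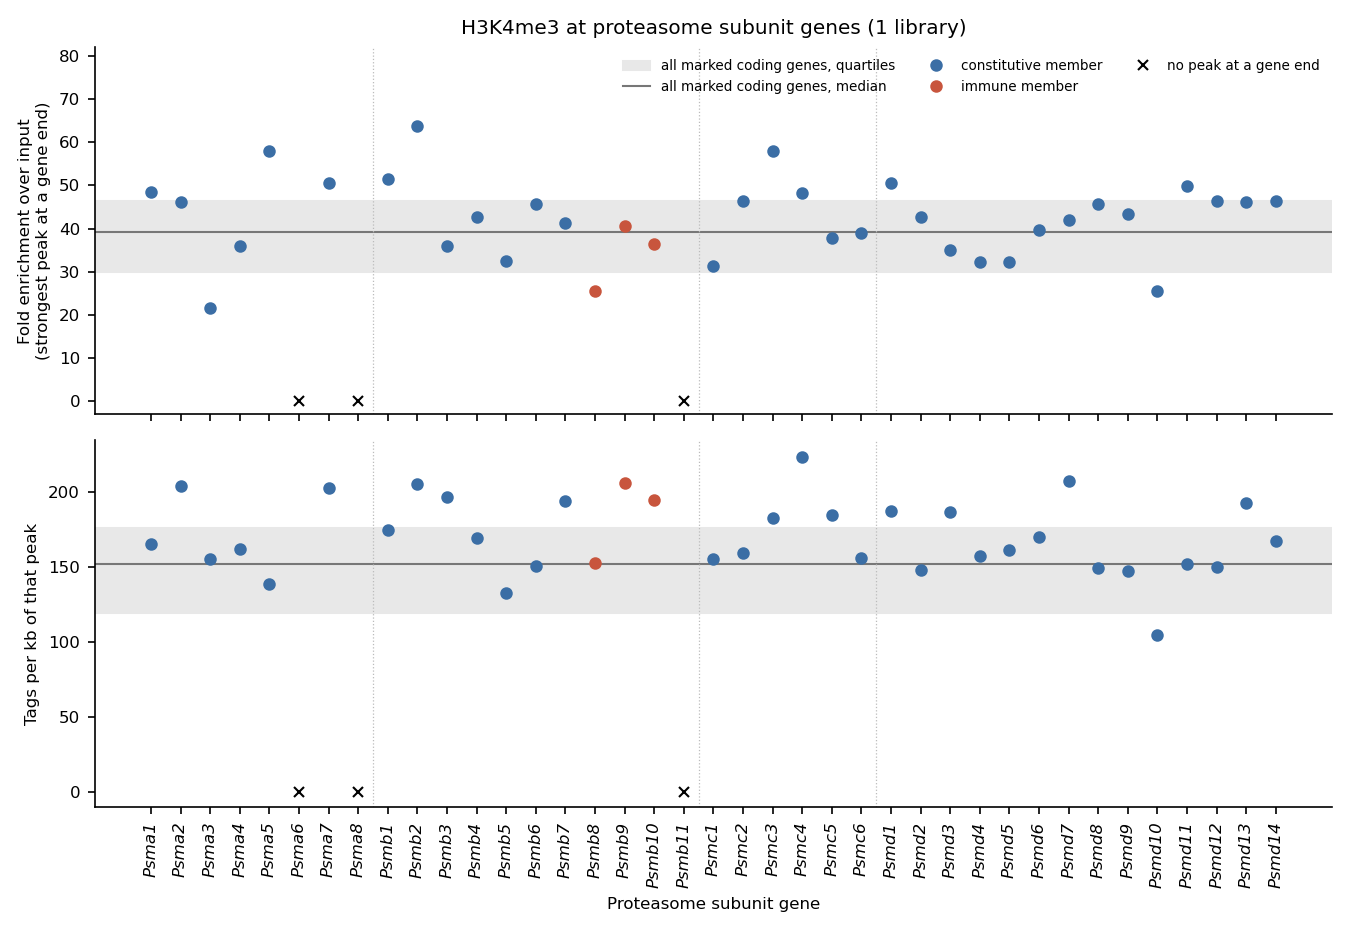
Fold enrichment over the input (upper panel) and tags per kb (lower panel) of the strongest peak at an end of each proteasome gene, ordered by family, with 1 point per gene from 1 library. Blue points are constitutive and red points immune members, crosses drawn at 0 mark the 3 genes without a peak at an end, and the grey band and line give the quartiles and median of all marked coding genes. Most points lie in or above the band, and Psma3, Psmb8 and Psmd10 lie below its lower edge in the upper panel.

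The alpha subunit genes, whose products form the outer rings and the gate of the core, had a peak at an end in 6 of 8 cases. The interval of this share, 34.9% to 96.8%, includes the 56.3% of all coding genes. The fold enrichment was highest at Psma5, at 57.9 over a peak of 4091 bp with 569 tags (108255975 to 108260065 on chromosome 3, mm10), and lowest at Psma3, at 21.6 over 2578 bp with 401 tags. Psma7 (50.6), Psma1 (48.5), Psma2 (46.2) and Psma4 (36.0) lay between them. The values at gene ends thus spread over a wide part of the range of marked genes, from the percentile 13.2 at Psma3 to 97.4 at Psma5. The Psma3 value belongs to the outer end of its gene model and not to its annotated start. Among the other marked alpha genes the lowest percentile was 39.1, at Psma4. In tags per kb the order was another one: Psma2 (204) and Psma7 (203) were densest and Psma5 (139) was thinnest, since its tags were spread over the longest peak of the family.

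At Psma3 and Psma6 the outer end of the gene model and the marked start were apart. The RefSeq gene Psma3 begins at position 70969283 of chromosome 12 (mm10), but the annotated start that has a promoter entry lies 5.34 kb further in, at position 70974623. A second, stronger peak lay there, with a fold enrichment of 47.0, 438 tags and 2433 bp (70974225 to 70976657). The weaker peak at the outer end of the gene (70967578 to 70970155) also covered the lysine tRNA gene n-TKctt17, which ends 91 bp before Psma3. At its own start Psma3 thus lay between Psma1 and Psma2 in fold enrichment.

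Psma6 had starts at both 55384222 and 55398825 of chromosome 12 (mm10), both on the plus strand. The outer one had no peak within 1 kb, and the inner one lay under a peak with a fold enrichment of 46.3, 479 tags and a length of 2905 bp (55397748 to 55400652). This was the nearest peak to either end of the gene, at 13.5 kb. The 250 bases before each start are given here (RefSeq, GRCm38.p6, the assembly that mm10 names), since the pair sets an unmarked against a marked start of the same gene, with the Psma3 start for comparison. Capitals mark matches, on either strand, to the motifs described with the promoters further on. They lie at chr12:55383972-55384221, plus strand, at chr12:55398575-55398824, plus strand, and for Psma3 at chr12:70974373-70974622, plus strand.
Psma6 outer start, no peak: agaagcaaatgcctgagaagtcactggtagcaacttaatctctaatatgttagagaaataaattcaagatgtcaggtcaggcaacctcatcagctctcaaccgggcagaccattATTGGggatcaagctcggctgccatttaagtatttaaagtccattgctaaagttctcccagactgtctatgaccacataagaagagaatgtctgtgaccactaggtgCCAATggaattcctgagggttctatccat
Psma6 inner start, peak: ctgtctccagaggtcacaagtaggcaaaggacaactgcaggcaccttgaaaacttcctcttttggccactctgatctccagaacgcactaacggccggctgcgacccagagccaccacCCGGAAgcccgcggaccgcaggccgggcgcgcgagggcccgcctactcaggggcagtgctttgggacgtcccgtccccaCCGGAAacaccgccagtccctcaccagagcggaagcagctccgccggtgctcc
Psma3 start, peak: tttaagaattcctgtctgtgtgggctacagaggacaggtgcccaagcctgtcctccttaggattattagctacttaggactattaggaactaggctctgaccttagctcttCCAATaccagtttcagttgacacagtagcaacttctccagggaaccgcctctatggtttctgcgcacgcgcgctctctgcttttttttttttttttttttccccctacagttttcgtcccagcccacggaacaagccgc
The stretch before the outer start of Psma6 held 2 CpG dinucleotides and 42.8% G and C, and the stretch before the inner one held 20 and 65.6%. The stretch before the Psma3 start, which lay under a peak, held 8 CpG and 48% G and C. The summit of that peak lay 746 bp inside the gene, outside the printed bases. The part of base composition in the mark was not tested.

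**Figure D2:**
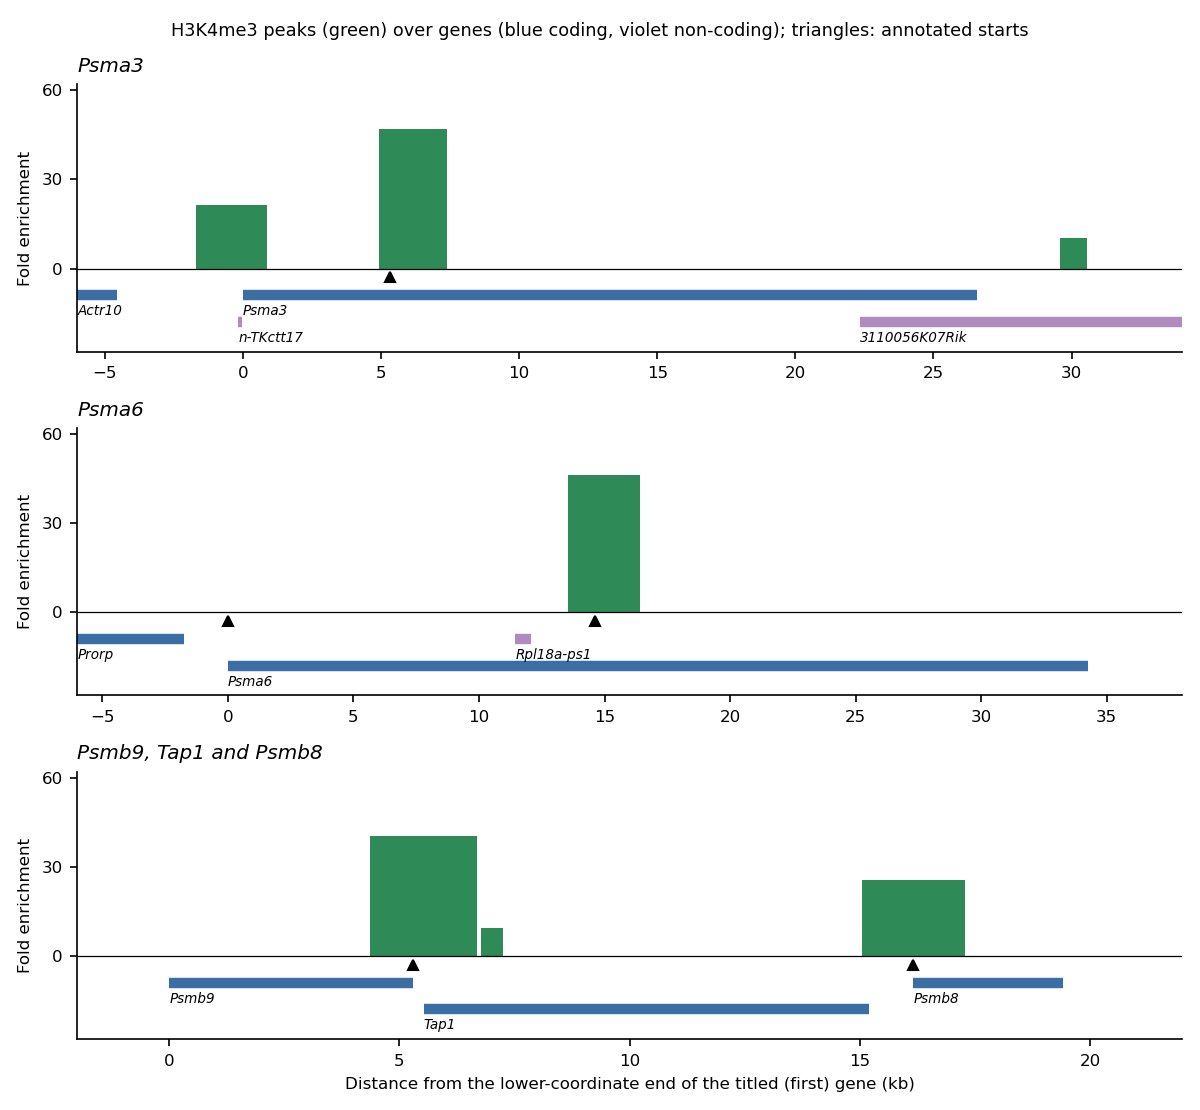
Maps of the loci of Psma3, of Psma6, and of Psmb9, Tap1 and Psmb8, with distance in kb from the lower-coordinate end of the first gene on the horizontal axis and the fold enrichment of each peak as the height of a green bar as wide as the peak. Blue bars are coding and violet bars non-coding genes, and triangles are annotated starts of the proteasome genes. The start of Psma3 lies under its stronger peak (47.0), the outer start of Psma6 lies under none, and a single peak (40.5) spans the start of Psmb9 and the neighbouring end of Tap1.

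Psma8, which encodes the alpha subunit that takes the place of Psma7 in male germ cells, was the other alpha gene without a peak at an end. No peak lay over it, and the nearest was 20049 bp from its end on chromosome 18. The germ cell markers Ddx4, Dazl, Sycp3 and Stra8 had no peak at an end or over the gene. For end peaks this was 0 of 4 (interval 0% to 60.2%, which includes the 56.3% of all coding genes). The part of the cell type in the missing Psma8 peak was not tested.

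Of the 11 beta subunit genes 10 had a peak at an end. Psmb2, a beta ring subunit without protease activity, had the highest fold enrichment of all proteasome genes, 63.7 over a peak of 2058 bp with 423 tags (126676812 to 126678869 on chromosome 4), above 99.4% of marked coding genes. Psmb1 (51.4), Psmb6 (45.6), Psmb4 (42.6), Psmb7 (41.4), Psmb9 (40.5), Psmb10 (36.3), Psmb3 (35.9) and Psmb5 (32.6) followed, and the lowest was Psmb8, at 25.6. Psmb1 and Psmb3 lay under broad regions, defined as the widest 5% of joined regions at coding gene ends, which were at least 4.54 kb wide. Psmb1 lay under a peak of 4807 bp with 841 tags (15496265 to 15501071 on chromosome 17), the most of any member, shared with an end of Tbp, the gene of the TATA-binding protein. Psmb3 lay under a joined region of 6374 bp, of which its own peak (97701922 to 97704530 on chromosome 11) made up 2609 bp with 513 tags. The region also held a stronger peak (fold enrichment 53.5) inside the Polycomb gene Pcgf2. The count of 2 in 36 (5.56%) was close to the 5.62% of all marked coding genes. Which members were broad depended on the definition. Without joining they were Psmb1 and the ATPase gene Psmc2 (5.58% of marked coding genes were broad), and with the widest 10% they were Psma5, Psmb1, Psmb3 and Psmc2 (11.2%). The count was 2 with a score of at least 100 (5.58%) and 1, Psmb3, where gaps up to 3 kb were joined (6.60%).

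The catalytic beta subunits exist in constitutive and immune forms, and all 3 pairs were marked at both. In each pair the fold enrichment was lower at the immune gene. It was 45.6 at Psmb6 (caspase-like activity) and 40.5 at its counterpart Psmb9, 41.4 at Psmb7 (trypsin-like) and 36.3 at Psmb10, and 32.6 at Psmb5 (chymotrypsin-like) and 25.6 at Psmb8. The immune values were 0.889, 0.878 and 0.786 of the constitutive ones. The tag counts per kb of peak did not follow this order. Psmb9 held 206 tags per kb (exact 95% Poisson interval 188 to 226, counting error only) against 151 (134 to 169.7) at Psmb6, a ratio of 1.37 with an interval of 1.18 to 1.59. Psmb10 and Psmb7 held 195 and 194, a ratio of 1.00 (0.874 to 1.15). Psmb8 held 153 against 133 at Psmb5, a ratio of 1.15 (0.959 to 1.38). The direction of the difference thus depended on the measure, and for the latter pairs the density interval included equal values.

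The constitutive peaks held 287 tags over 1899 bp at Psmb6 (70524542 to 70526440 on chromosome 11), 400 over 2058 bp at Psmb7 (38642667 to 38644724 on chromosome 2) and 188 over 1416 bp at Psmb5 (54617033 to 54618448 on chromosome 14). Each immune gene shared its peak with a coding neighbour, and the constitutive partners did not. Psmb9 and Tap1, which encodes a subunit of the transporter that carries peptides to the endoplasmic reticulum, are transcribed away from each other, with starts 226 bp apart, under a common peak of 2321 bp with 479 tags (34186399 to 34188719 on chromosome 17). The summit of this peak lay at -594 bp from the Psmb9 start, inside Tap1. The peak of Psmb8 (34197078 to 34199305, 340 tags) reached to the far end of Tap1, but its summit lay 293 bp inside Psmb8. The peak of Psmb10 (105936468 to 105938725 on chromosome 8, 440 tags) lay within 1 kb of the far end of Lcat, the gene of a cholesterol-esterifying enzyme, without reaching it. It lay mostly over the body of Psmb10 and extended 333 bp before the annotated start and 1924 bp into a gene of 2665 bp. Which gene of each pair the mark belongs to was not tested.

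**Figure D3:**
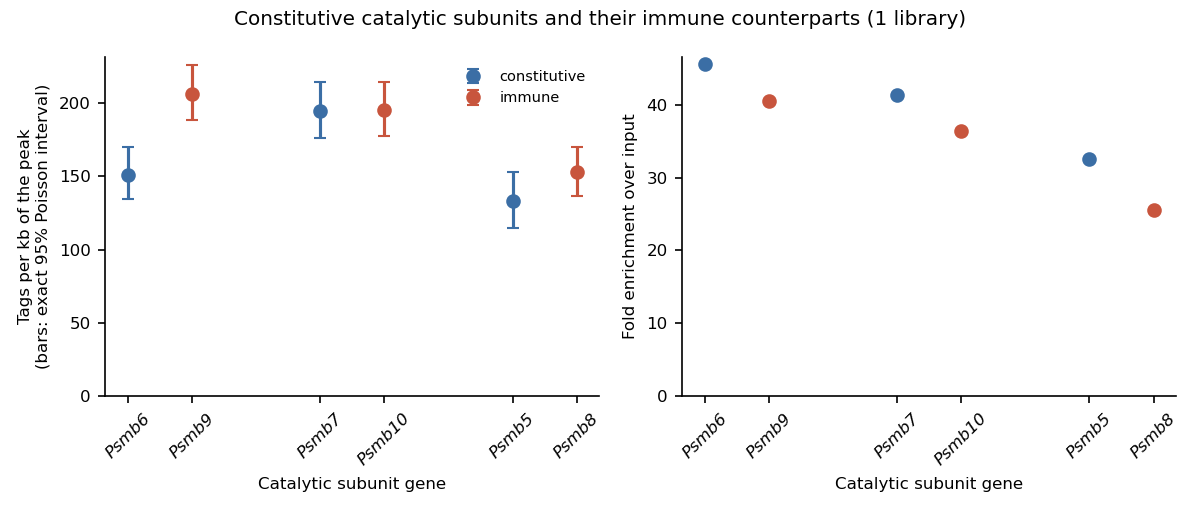
Tags per kb of the peak with exact 95% Poisson intervals (left) and fold enrichment over the input (right) at the constitutive catalytic genes (blue) and their immune counterparts (red), each from 1 library. The fold enrichment is lower at the immune gene in each of the 3 pairs, whereas the tag density is higher at Psmb9 than at Psmb6 and has overlapping intervals in the other pairs.

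The marked immune starts differ from one another in CpG count. For this reason the catalytic genes with a promoter entry are shown, with the unmarked thymus gene Psmb11 at the end. The sequences are the 250 bases before each start (RefSeq, GRCm38.p6, capitals as above). They lie at chr14:54617996-54618245, minus strand, chr11:70525107-70525356, plus strand, chr17:34197945-34198194, plus strand, chr17:34187331-34187580, minus strand, chr8:105938393-105938642, minus strand, and chr14:54625060-54625309, plus strand.
Psmb5: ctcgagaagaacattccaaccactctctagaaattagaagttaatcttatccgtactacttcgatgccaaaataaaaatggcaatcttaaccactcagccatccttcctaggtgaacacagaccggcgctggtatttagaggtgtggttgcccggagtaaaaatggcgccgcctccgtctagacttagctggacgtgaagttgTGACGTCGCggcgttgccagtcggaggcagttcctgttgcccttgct
Psmb6: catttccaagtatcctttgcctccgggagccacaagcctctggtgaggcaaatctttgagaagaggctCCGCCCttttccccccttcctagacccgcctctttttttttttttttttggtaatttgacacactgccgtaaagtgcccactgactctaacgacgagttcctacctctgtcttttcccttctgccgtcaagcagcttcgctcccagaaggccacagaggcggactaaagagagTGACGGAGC
Psmb8: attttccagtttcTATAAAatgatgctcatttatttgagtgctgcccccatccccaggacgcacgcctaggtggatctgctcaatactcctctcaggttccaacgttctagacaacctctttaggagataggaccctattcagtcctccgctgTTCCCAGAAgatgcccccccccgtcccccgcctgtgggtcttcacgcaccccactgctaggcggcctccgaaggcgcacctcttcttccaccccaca
Psmb9: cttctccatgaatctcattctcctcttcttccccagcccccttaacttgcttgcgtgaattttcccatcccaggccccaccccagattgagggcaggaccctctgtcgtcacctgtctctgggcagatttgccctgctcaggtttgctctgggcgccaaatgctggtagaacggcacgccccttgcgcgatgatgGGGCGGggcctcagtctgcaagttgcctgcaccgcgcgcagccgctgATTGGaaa
Psmb10: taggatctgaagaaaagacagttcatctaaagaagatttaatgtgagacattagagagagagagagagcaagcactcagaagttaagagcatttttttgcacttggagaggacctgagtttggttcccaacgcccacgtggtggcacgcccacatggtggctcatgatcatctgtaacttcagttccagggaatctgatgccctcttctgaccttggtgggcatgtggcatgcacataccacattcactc
Psmb11: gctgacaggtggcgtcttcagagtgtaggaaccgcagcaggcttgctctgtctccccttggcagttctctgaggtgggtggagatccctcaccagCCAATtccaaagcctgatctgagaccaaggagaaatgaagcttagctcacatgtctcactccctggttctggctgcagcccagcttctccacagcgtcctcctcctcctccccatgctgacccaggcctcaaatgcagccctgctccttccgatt
These stretches held 15 CpG at Psmb5, 10 at Psmb6, 10 at Psmb8, 12 at Psmb9, 3 at Psmb10 and 4 at Psmb11. Psmb10, which had a peak, and Psmb11, which had none, were alike in CpG content here. The summit of the Psmb10 peak lay 404 bp inside the gene, outside these bases. The part of CpG content in the mark was not tested. Psmb5 held the letters of an antioxidant response element, TGACGTCGC, 47 bases before its start. Psmb8 held TTCCCAGAA, the letters of a STAT-type element, 97 bases before its start.

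Psmb11 encodes the beta subunit of the thymoproteasome, made by epithelial cells of the thymic cortex. It lies on chromosome 14 next to Psmb5, whose peak was the nearest, at 6.86 kb. Of the thymic epithelial markers, Krt5 had no peak, Foxn1 had one inside the gene only (fold enrichment 23.9), and Ccl25 had one at an end that it shared with Elavl1.

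All 6 ATPase genes of the regulatory particle were marked (interval 54.1% to 100%, which includes the 56.3% of all coding genes). The fold enrichment ran from 31.3 at Psmc1 (350 tags over 2246 bp, 100109463 to 100111708 on chromosome 12) to 57.9 at Psmc3 (452 tags over 2472 bp, 91052905 to 91055376 on chromosome 2), with Psmc6 at 39.1, Psmc5 at 37.9, Psmc2 at 46.3 and Psmc4 at 48.3. The peak of Psmc2 was the longest in the regulatory particle, 4300 bp with 685 tags, and covered both annotated starts of that gene and an end of the chaperone gene Dnajc2, 10 bp away. The peak of Psmc4 was the densest of all members, 224 tags per kb over 1286 bp. A further weak peak of 19 tags (fold enrichment 9.40) lay just outside Psmc4.

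All 14 Psmd genes were marked (interval 76.8% to 100%), against 56.3% of all coding genes. Those of the scaffold and the lid had fold enrichments of 50.6 at Psmd1, 49.9 at Psmd11, 46.3 at Psmd12, 46.2 at Psmd13, 45.6 at Psmd8, 42.6 at Psmd2, 39.8 at Psmd6 and 34.9 at Psmd3. Psmd14, whose product cuts ubiquitin chains off the substrate, had 46.3, and its partner Psmd7 had 42.0. Psmd4, a receptor for ubiquitin, had 32.4. The genes of assembly chaperones that bear Psmd names had 43.4 (Psmd9), 32.2 (Psmd5) and 25.5 (Psmd10). The strongest of the family was thus Psmd1, with 408 tags over 2174 bp (86064097 to 86066270 on chromosome 1), and the weakest Psmd10, with 191 tags over 1827 bp (140955686 to 140957512 on X).

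Psmd10, which encodes gankyrin, is the single X-linked member. Its 105 tags per kb were also the fewest of all members. Marked coding genes on X had a median fold enrichment of 24.6 and 95.6 tags per kb (382 genes), against 39.8 and 153 on the autosomes (11941 genes), so that Psmd10 was low among the members and within the quartiles of its chromosome (20.25 to 28.2 in fold enrichment and 81.2 to 107 tags per kb). The part of the chromosome in its low value was not tested. The value 46.29 recurred at the strongest end peaks of 3 members, at the inner Psma6 start, and at 209 peaks of the list in all. Equal fold enrichments are therefore common.

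The peaks sat on the starts and extended into the genes. A promoter entry with a strand was found for 32 members (34 starts), and a peak lay within 1 kb of a start in 31 of them (96.9%, interval 83.8 to 99.9), against 58.0% of coding genes with an entry. Psmb11 was the exception. No promoter entry was used for Psma8, Psmb1, Psmb2, Psmb7, Psmc3, Psmd3 and Psmd7. All 31 peaks covered the start itself, as did those of 9799 of 10146 marked coding genes. They reached a median of 801 bp before and 1299 bp after it, against 796 and 1317 bp over all marked coding genes, and the summit lay a median of 290 bp inside the gene, against 215 bp. The summit lay inside the gene in 28 of the 31 (90.3%, against 81.0% of marked coding genes), and before the start at Psmb9 (-594 bp), Psmb3 (-440 bp) and Psmc2 (-328 bp from its outer start). Each of these genes has its peak in common with a neighbour. Beyond the peaks at ends and starts, 1 more peak lay over a member, a weak one of 45 tags (fold enrichment 8.28) within Psmb7.

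**Figure D4:**
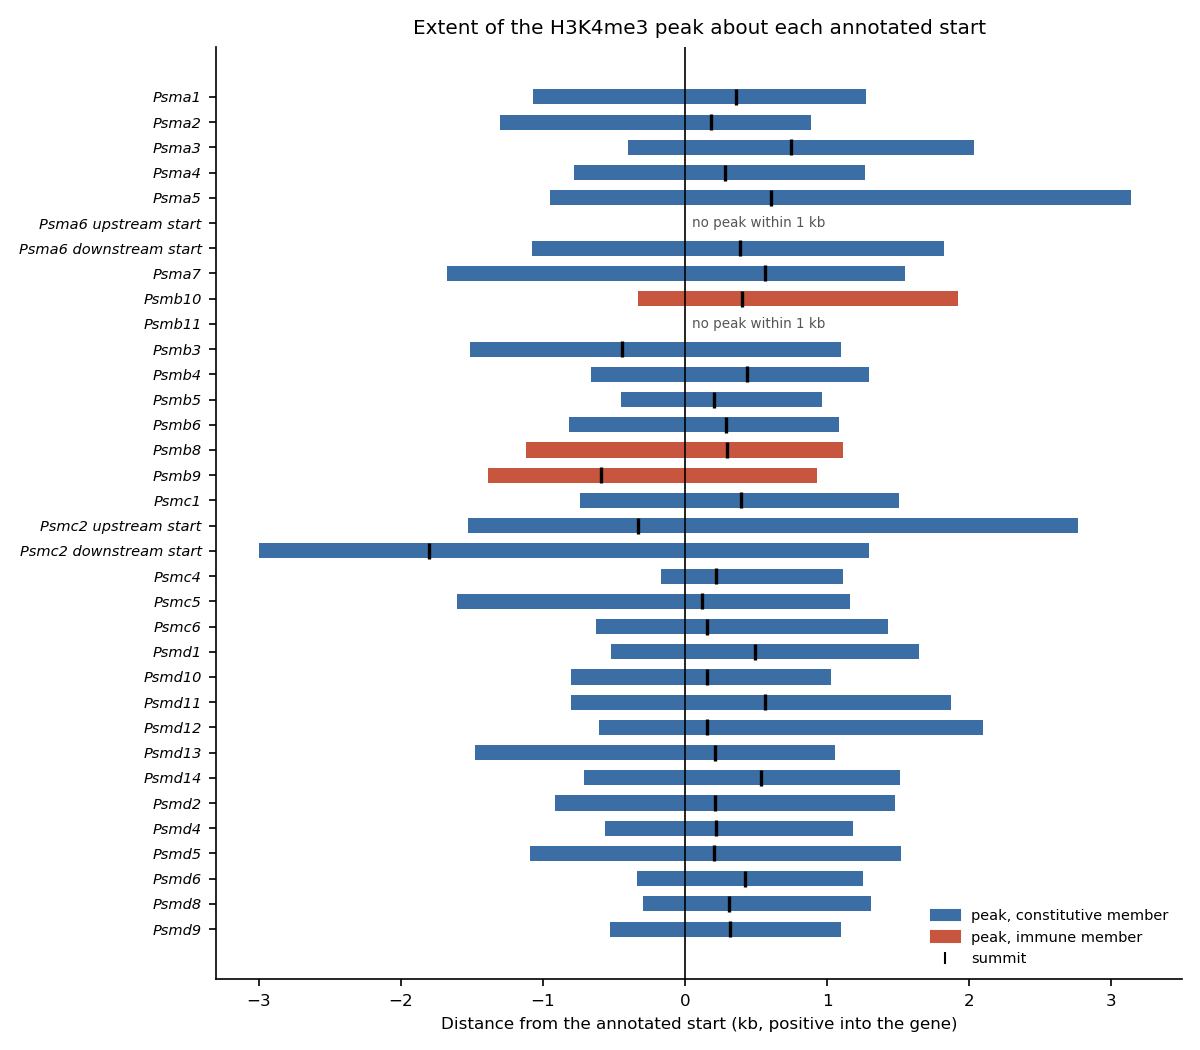
Extent of the strongest peak within 1 kb of each of the 34 annotated starts, with distance from the start in kb on the horizontal axis, positive into the gene, and black ticks for the summits. Blue bars are constitutive and red bars immune members. The bars cover the start in each marked gene, most reach further into the gene than out of it (24 of 31, or 77.4%, against 79.5% of marked coding genes), and the outer Psma6 start and Psmb11 have none.

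Some members had a peak in common with a neighbouring gene. Of the 36 marked members, 12 had only peaks that also lay at an end of another coding gene (33.3%, against 27.4% of marked coding genes), 8 of 16 in the core and 4 of 20 in the regulatory particle. The difference between the 2 particles has no test here. Starts that face away from another coding start within 1 kb were found for 6 of 32 members (18.8%, against 8.48% of coding genes with a promoter entry and 14.2% of those that were also marked). These pairs were Psma7 with Ss18l1 (19 bp apart), Psmd13 with Sirt3 (85 bp), Psmc5 with Ftsj3 (101 bp), Psmd10 with Atg4a (196 bp), Psma2 with Mrpl32 (205 bp) and Psmb9 with Tap1. A neighbour without a promoter entry could not count, such as Dnajc2, which lies 10 bp from Psmc2. The outer end of the Atg4a gene model lies elsewhere, so the Psmd10 peak was not counted as shared. Sirt3 is a mitochondrial deacetylase, Mrpl32 a mitochondrial ribosomal protein, and Atg4a an autophagy protease. In other cases the peak lay within 1 kb of the far end of a neighbour transcribed the same way, as for Psma4 with Hykk and Psmd8 with Catsperg1.

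The promoters of proteasome genes had a moderate CpG content. The 34 starts held a median of 19 CpG in 300 bases (250 before to 50 after the start; quartiles 12.75 and 22.75), against 13 in all 21263 coding promoters and 22 in those with a peak within 1 kb. Psma7 (41), Psmc2 at its outer start (37) and Psmc4 (34) held the most, and Psmb10 and the outer Psma6 start (3 each) and Psmb11 (4) the fewest. Across the 31 marked members the fold enrichment and the CpG count had a Spearman correlation of 0.467 and a Pearson correlation of 0.472, a description over genes that share a single library. The Spearman correlation of tags per kb with the CpG count was 0.0984.

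Motifs were searched as exact letters on both strands in these 300 bases. CCAAT, the box bound by NF-Y, was found in 13 of 32 members, and in 38.2% of their starts as well as 38.2% of coding promoters and 38.02% of those with a peak. TGACNNNGC, the core of the antioxidant response element that NRF1 and NRF2 bind, was found in 5 (Psmb5, Psmb6, Psmc6, Psmd9 and Psmd12), which is 14.7% of starts against 13.0% and 14.2%. GGGCGG, the GC box, was found in 19, or 55.9% of starts against 46.2%, and in 67.9% of coding promoters with a peak. TATAAA, the letters of the TATA box, was found in 4 (Psmb4, Psmb8, Psmd1 and Psmd6). This is 11.8% of starts against 12.6%, and 6.14% of coding promoters with a peak. Its position was not restricted, and the match at Psmb8 began 237 bases before the start. The CCAAT and antioxidant shares thus lay near both comparison sets, the GC box share lay between them, and the TATA share was near that of all coding promoters and above that of marked ones.

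The share with CCGGAA, the core of sites for ETS factors, stood higher than the share in coding promoters. It was found in 15 of 32 members, 47.1% of starts, against 18.7% of coding promoters and 28.3% of those with a peak. It was found in 11 of 17 regulatory and 4 of 15 core genes. In the 250 bases before the start alone it was found in 11 of 17 and 2 of 15. In these 250 bases 41.2% of all member starts held it, against 15.0% of coding promoters and 22.6% of those with a peak. In the 300 bases GGGCGG leaned the same way, with 13 of 17 regulatory and 6 of 15 core genes. CCAAT leaned the other way, with 5 of 17 and 8 of 15. The differences between the 2 particles were not tested. Motifs of the interferon response were added after the values had been seen. The repeat bound by IRF factors, GAAA and GAAA around any 2 bases, was found in Psmb3, Psmd4 and Psmd9 (8.82% of starts against 3.35%, and 2.90% of those with a peak), and TTCNNNGAA, a type bound by STAT factors, in Psmb8 and Psmd2 (5.88% against 7.69% and 6.296%). None of the searched letters says that a factor was bound. A single start, that of Psmd9, held matches to different motifs that overlap each other, GGGCGG and TGACNNNGC. As an example of a promoter with several kinds of motif, the 250 bases before Psmd12 (chr11:107479278-107479527, plus strand, RefSeq, GRCm38.p6) hold TGACNNNGC on the reverse strand, GGGCGG on the reverse strand at 169 and 153 bases before the start, and CCGGAA on the reverse strand 16 bases before it, all in capitals.
Psmd12: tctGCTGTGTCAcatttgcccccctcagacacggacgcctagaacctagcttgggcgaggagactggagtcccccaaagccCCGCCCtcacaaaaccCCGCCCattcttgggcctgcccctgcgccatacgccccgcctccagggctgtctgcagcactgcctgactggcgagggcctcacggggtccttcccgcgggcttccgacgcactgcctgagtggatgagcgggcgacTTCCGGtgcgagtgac

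**Figure D5:**
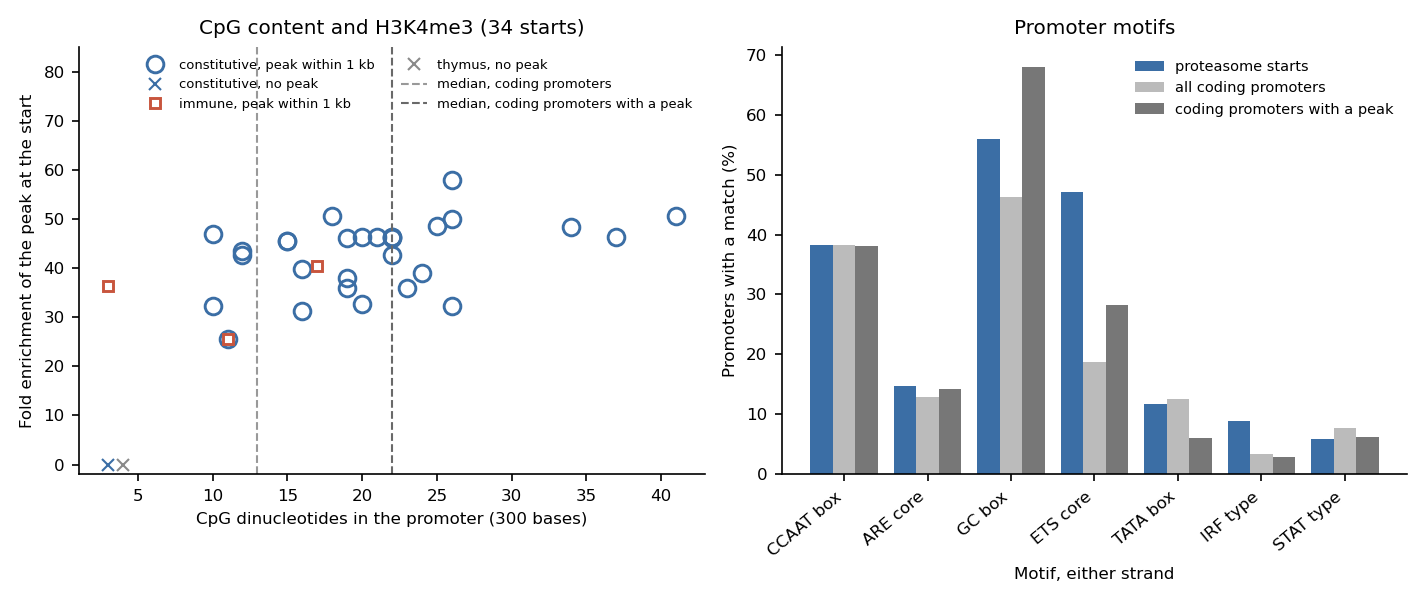
Left, fold enrichment of the peak at a start against the number of CpG dinucleotides in the 300 promoter bases for 34 starts of 32 members, with crosses at 0 for starts without a peak and dashed lines for the medians of coding promoters (13) and of those with a peak (22). Right, percent of proteasome starts, of all coding promoters and of coding promoters with a peak that hold each motif; the bar of the ETS core is higher for proteasome starts (47.1%) than for either comparison set.

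Genes that act with the subunits were marked in most cases as well, but these lists are short, and an end peak was present in 56.3% of all coding genes. Peaks lay at an end of all 5 genes of other subunits and associated enzymes (interval 47.8% to 100%), where the fold enrichment ran from 32.5 at the deubiquitinase gene Usp14 to 54.2 at Txnl1, with the ubiquitin receptor gene Adrm1 at 36.9. Of the activators and the inhibitor, Psme1 (38.3), Psme2 (47.7), Psme3 (37.7) and Psme4 (46.3) had a peak, whereas Psmf1, the inhibitor gene, was marked only within its body, at a fold enrichment of 52.8. All 5 assembly chaperone genes in the gene table were marked (the same interval), from 32.2 at Psmg3 to 44.6 at Pomp. Paaf1 was not analysed here.

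Genes of the interferon response and of antigen processing were marked beside the immune subunits. The fold enrichment was 24.5 at Nlrc5, a regulator of class I genes, 47.0 at Tapbp, 42.7 at Tap2, 42.0 at B2m and 39.8 at Irf1. It was 32.2 at Erap1, which encodes a peptide-trimming enzyme, and 28.6 and 41.95 at the interferon gamma receptor genes Ifngr1 and Ifngr2. Markers of the cell types that could be present were set beside these values. An end peak was present at 7 of 8 neural progenitor markers (interval 47.3% to 99.7%, which includes the 56.3% of all coding genes), and Pax6 had one inside the gene. It was present at 2 of 7 markers of microglia and other immune cells (interval 3.67% to 71.0%, which also includes that share). These were Cd68 (31.8) and Spi1 (26.8), while Ptprc had one inside the gene (17.4), and Aif1, Itgam, Csf1r and Cx3cr1 had none over the gene. The part of immune cells in the marks at the immune subunit genes was not tested.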

How the data were processed

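H3K4me3 was measured in 1 library of adult mouse neural progenitor cells against 1 input. Per the file headers, the authors called peaks with MACS 1.4.2 at a p cutoff of 1e-05, with duplicates limited to 1 tag per position. The caller listed in the submitters' processing notes is MACS2 2.1.0, and the build is mm10. For the aligner, no name is given in the sources. The deposited columns hold a raw tag count per peak, a score (10 times the negative log10 of p), the fold enrichment as a ratio over the input, and a percent false discovery rate. Of the deposited peaks 3925 share a score of 3100, so the score was used for no ranking.

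Peaks on assembled chromosomes (19261 of 19265) were joined to RefSeq gene ends (GRCm38.p6) when they overlapped a window of 1 kb either side, and the strongest peak by fold described a gene. Peaks 1 kb or less apart were joined into regions. Starts, strands and sequences came from the RefSeq promoter table. Python 3.11.15, pandas 2.3.3 and scipy 1.17.1 were used, and the joining was tested on simulated peaks. Intervals cover counting error only: PCR reads that carry no molecular identifier cannot be counted as separate molecules.

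Every member is named; full values went to the strongest and weakest of each family, members under broad regions, catalytic, immune, thymus and testis genes, and genes without a peak at an end. Members and lists were chosen with earlier results of these data known. The motifs of the interferon response were added after values had been seen. Alternatives covered the window, score, overlap, joining gap and promoter length, and their effect is given in the closing section. A few genes of the lists beside the members are not reported here.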

Additional observations from a re-analysis of the deposited data

How the results depend on the processing

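Of 80 values under alternative settings, 75 stayed within the bounds set for them (1.5 times a count, or the 95% order-statistic interval of a median). Some of the counts of members with a peak could not move. Every listed peak meets the limit of 1% on the false discovery rate. The strongest end peak of each marked member scored at least 1181, above the cutoff of 100. A count of 36 of 39 also could not rise by 1.5 times. The number of members with a peak was 36 of 39 with windows of 500 and 2500 bp, with a score of at least 100, with a false discovery rate of at most 1%, which every listed peak meets, and with at least 200 bp of overlap. It was 35 with the summit in the window and 37 with a peak anywhere over the gene. With peaks at ends of 1 coding gene only, the count of all members fell to 24 of 39 (40.9% of coding genes). This lies on the bound of 1.5 times and was counted as within it. Under the same setting the core count fell to 8 of 19. The immune, thymus and testis count fell to 0 of 5, because Psmb8, Psmb9 and Psmb10 share their peaks. Members under broad regions numbered 1 with a joining gap of 3 kb and 4 with the widest 10%; without joining they were Psmb1 and Psmc2. TTCNNNGAA, searched after the values were seen, was found in 1 member in the 250 bases before the start alone. There it was in 2.94% of member starts and 6.58% of coding promoters. At annotated starts, a setting added later for medians, the fold enrichment was a median of 44.1 in the core and 43.4 in the regulatory particle. No paired analysis was possible because there was 1 library of each kind. Depth limits the absence of a peak: the listed peak with the fewest tags held 13.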

Other observations

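All 7 regulators of proteasome genes looked at had a peak at an end (exact 95% interval 59.0% to 100%), against 56.3% of all coding genes. Nfe2l1, which encodes NRF1, the factor that raises proteasome gene expression when the proteasome is inhibited, lay under a joined region of 9.22 kb with a strongest peak of 44.8, and Nfe2l2, which encodes NRF2, under 5.15 kb with 49.5. Both are wider than the broad bound of 4.54 kb, so 2 of the 7 were broad, against 5.62% of all marked coding genes. The other regulators lay below that bound, from 1.83 kb at Ngly1 to 3.445 kb at Ddi2. So did each marked proteasome gene other than Psmb1 and Psmb3. The difference in width between these short lists was not tested. Ddi2, whose product cuts NRF1, had a fold enrichment of 39.2, Ngly1, whose product removes its sugars, 30.4, and the small MAF genes Maff, Mafg and Mafk 47.7, 51.4 and 45.6.

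All 7 genes of ubiquitin and of its first enzymes looked at were marked too (interval 59.0% to 100%), against 56.3% of all coding genes. The polyubiquitin gene Ubb lay under a broad region of 5.57 kb, whereas Rps27a, which encodes ubiquitin fused to a ribosomal protein, lay under 2.53 kb with a fold enrichment of 61.5. The activating enzyme gene Uba6 had a fold enrichment of 53.1, and Uba1, the X-linked gene of the main activating enzyme, had 23.1.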
